A study of Mus musculus with 7 samples.

Results

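The genes described are 6 members of the mouse Ms4a family, Ms4a4a, Ms4a4b, Ms4a4c, Ms4a6b, Ms4a6c and Ms4a6d. They were chosen by symbol from the 25469 genes of the deposited table, which lists 15 Ms4a genes in all, and Ms4a1 (CD20) was left aside. All 6 passed the filter on low counts and were among the 13904 genes tested. RNA-sequencing was carried out on CD4+CD25+ splenocytes isolated with magnetic beads from wild-type C57BL/6 male mice. Aged mice were 18 months old (3 libraries) and young mice were 8 weeks old by the labels (4 libraries), while the study's methods give a slightly different age for the young mice. The labels give no treatment for either group, and both carried the same WT genotype. The labels call the libraries biological replicates and do not say whether a library came from a single mouse or from pooled spleens. Libraries were made with the SMART-Seq v4 kit, which amplifies full-length cDNA without molecular identifiers.

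MS4A proteins are tetraspan membrane proteins that sit beside receptors and modulate their signals. CD20 on B cells and the beta chain of the IgE receptor on mast cells (Ms4a2) are the best known. In mouse T cells MS4A4B associates with the costimulatory receptor GITR (Tnfrsf18), which regulatory T cells carry at a high level, whereas MS4A4A and MS4A6D are known mainly from macrophages, where they associate with Dectin-1 (Clec7a) and VSIG4.

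The 6 genes lie in 1 cluster on chromosome 19 (GRCm38, GENCODE M21 annotation), with Ms4a4d between Ms4a6b and Ms4a6d. Ms4a4a is at chr19:11375523-11392790, Ms4a4c at chr19:11404770-11427246, Ms4a4b at chr19:11443553-11467055, Ms4a6c at chr19:11469366-11482192 and Ms4a6b at chr19:11516512-11531256, all on the plus strand. Ms4a6d, at chr19:11586604-11604849, is on the minus strand. The coding sequences fall into 2 close groups. Ms4a4b and Ms4a4c were identical at 91.74% of aligned coding bases. Ms4a6b was identical to Ms4a6c at 85.05% and to Ms4a6d at 79.56%. Identity between a 4-type and a 6-type gene was 42.97% to 47.33%, and Ms4a4a reached 63% with either Ms4a4b or Ms4a4c.

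These stretches are shown because short reads from them can come from more than one of the genes. Coding bases 100 to 189 (counted from the first base of the start codon) of the 3 Ms4a6 genes agree at 84 of 90 positions. The window is spliced from exons within chr19:11520438-11521712 (Ms4a6b, plus strand), chr19:11471204-11472434 (Ms4a6c, plus strand) and chr19:11601923-11603193 (Ms4a6d, minus strand), and capitals mark the 6 positions at which the genes differ.
Ms4a6b: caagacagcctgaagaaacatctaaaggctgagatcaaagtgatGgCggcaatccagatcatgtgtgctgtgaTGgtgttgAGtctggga
Ms4a6c: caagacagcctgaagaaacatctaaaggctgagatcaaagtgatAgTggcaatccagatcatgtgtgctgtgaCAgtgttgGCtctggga
Ms4a6d: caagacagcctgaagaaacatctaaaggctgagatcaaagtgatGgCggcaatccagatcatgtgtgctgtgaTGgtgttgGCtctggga
The longest run without a difference between Ms4a4b and Ms4a4c is 127 coding bases (321 to 447 of either gene), spliced from exons within chr19:11459161-11461265 in Ms4a4b and chr19:11419001-11421266 in Ms4a4c, both on the plus strand.
Ms4a4b: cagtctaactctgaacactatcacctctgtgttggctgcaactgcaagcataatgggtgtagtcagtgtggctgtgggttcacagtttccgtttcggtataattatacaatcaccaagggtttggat
Of all 50-base stretches of the coding sequence, 12.4% in Ms4a4b and 13.67% in Ms4a4c occur in an annotated transcript of another gene of the family. The share was 6.735% in Ms4a6b, 5.78% in Ms4a6d, 0.997% in Ms4a6c and 0% in Ms4a4a. The read length is not given in the sources used here, and 50 bases is a chosen length. A read that lies wholly in such a stretch fits more than one gene, so the shares would be lower for longer reads or informative mates, and the counts of the close copies carry that uncertainty.

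The likeness of the pairs extends to the annotated promoters. RefSeq promoters (GRCm38.p6, plus strand) were found for 5 of the 6 genes; Ms4a6d had no entry. For Ms4a4c and Ms4a6b the RefSeq start lies inside the GENCODE gene span given above, so their windows are within the gene by that annotation. The promoters of Ms4a4b and Ms4a4c align over 132 bases with 117 identical (88.64%), at chr19:11443422-11443553 and chr19:11407528-11407660. Capitals mark bases that differ from the other gene or have no partner there.
Ms4a4b: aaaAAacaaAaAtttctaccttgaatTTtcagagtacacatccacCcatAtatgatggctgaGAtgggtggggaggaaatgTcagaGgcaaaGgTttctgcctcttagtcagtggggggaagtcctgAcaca
Ms4a4c: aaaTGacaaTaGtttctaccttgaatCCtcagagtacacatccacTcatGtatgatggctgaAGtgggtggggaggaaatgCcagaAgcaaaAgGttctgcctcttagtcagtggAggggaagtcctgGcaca
Those of Ms4a6b and Ms4a6c align over 172 bases with 148 identical (86.05%), at chr19:11518311-11518488 and chr19:11469193-11469366, with capitals used in the same way.
Ms4a6b: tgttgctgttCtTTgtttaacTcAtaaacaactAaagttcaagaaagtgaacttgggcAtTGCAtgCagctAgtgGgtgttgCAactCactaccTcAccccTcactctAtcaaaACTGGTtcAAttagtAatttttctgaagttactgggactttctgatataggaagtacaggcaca
Ms4a6c: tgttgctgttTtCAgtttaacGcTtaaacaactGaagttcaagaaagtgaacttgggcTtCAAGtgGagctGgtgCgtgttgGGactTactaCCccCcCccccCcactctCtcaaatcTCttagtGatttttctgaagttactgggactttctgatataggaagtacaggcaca
The 250 bases before each start were searched on both strands for short motifs. The core of an interferon element, GAAANNGAA, matched 1 time in each of Ms4a6b and Ms4a6c, inside the block shown, and in none of Ms4a4a, Ms4a4b and Ms4a4c. It occurs in 7.13% of all 32851 promoters of the same length. TATAAA matched only Ms4a4b of the 5 (12.4% of all promoters), TGTGGT (RUNX core) matched only Ms4a4c (14% of all promoters), and TTCNNNGAA (STAT) matched none of the 5 (7.02% of all promoters). A match describes the letters of the window and nothing more.

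The libraries held 10734234 to 13649310 counts on genes, so that 3 counts equal 0.21 to 0.302 CPM (the share of a library's gene counts, scaled to a fixed total after TMM normalization). The labelled cell type was read from its markers. The 9 T cell and regulatory T cell genes listed, Cd3e, Cd4, Foxp3 and Il2ra among them, read 212 to 835 CPM over all 7 libraries, and 1 of the 9 (Cd3e) passed the test. Genes of other cells were also present in all libraries. The summed level of 15 monocyte or macrophage genes was 432 to 691 CPM in aged and 503 to 629 CPM in young libraries. The 8 neutrophil genes summed to 720 to 5303 CPM in aged and 266 to 942 CPM in young libraries, with the highest sum in aged replicate 1. Of the other lists, the 8 B cell genes summed to 957 to 1893 CPM in aged and 1445 to 2288 CPM in young libraries. Of these 8 genes, 0 passed the test (median log2 fold change -0.45). The counts were 0 of 2 CD8 T cell genes (-0.26) and 1 of 6 NK cell genes, as lower (-0.50). For dendritic cells 4 of 8 genes passed, 1 higher and 3 lower (-0.88). For mast cells or basophils 2 of the 3 tested genes passed, both lower (-1.32). With single libraries left out the B cell median went from -0.73 (without aged replicate 3) to -0.18 (without aged replicate 1) and the CD8 median from -0.54 (without aged replicate 1) to -0.09 (without aged replicate 2), with -0.40 and -0.11 without young replicates 2 and 4. The NK cell median was -0.31 without aged replicate 2 and -0.28 without young replicate 3 and the dendritic cell median -1.34 without aged replicate 3, and the medians of all 5 lists remained negative. For a gene in such a mixture, fewer cells of a type and less RNA per cell cannot be told apart.

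Of the 6 genes Ms4a6b had the highest level in every library, followed by Ms4a4b. Per kilobase of exon union (the total length of all annotated exons), Ms4a6b stood at 137 ± 19.4 CPM per kb in young (SD, n = 4) and 148 ± 40.7 in aged mice (n = 3). Ms4a4b stood at 49.4 ± 7.25 and 43.4 ± 9.26 CPM per kb. Averaged over all libraries, Ms4a6b exceeded 98.1% and Ms4a4b 93.2% of the 13862 tested genes with a length. Ms4a4c followed at 27.4 ± 4.34 CPM per kb in young and 19.9 ± 7.82 in aged mice, and Ms4a6c at 10.6 ± 1.5 and 10.6 ± 1.71. These 4 genes kept this order in each of the 7 libraries, and in either age group the ranges of neighbours in it did not overlap. The ratio of neighbours within a library was 2.54 to 3.61 for Ms4a6b over Ms4a4b, 1.24 to 3.01 for Ms4a4b over Ms4a4c and 1.15 to 3.83 for Ms4a4c over Ms4a6c.

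The last places differed between the ages. Ms4a4a was above Ms4a6d per kb in 4 of 4 young libraries (2.28 ± 0.48 against 1.63 ± 0.549 CPM per kb), with overlapping ranges. It was below Ms4a6d in 3 of 3 aged libraries (1.77 ± 0.592 against 3.28 ± 0.582 CPM per kb), where the ranges did not overlap. The order depends in part on the length used. With the length of a single coding transcript Ms4a4a was above Ms4a6d in 3 of the 4 young libraries. Ms4a6b then stood higher, at 364 in young and 392 CPM per kb in aged mice. So did Ms4a4b, at 91.4 and 80.3 CPM per kb. The ratio of neighbours was then 3.65 to 5.19 for Ms4a6b over Ms4a4b and 2.25 to 5.48 for Ms4a4b over Ms4a4c. For Ms4a4c over Ms4a6c it was 1.05 to 3.5. As much as 53.1% of the exon length of Ms4a6c lies under BE692007, a gene on the opposite strand, and the sources used here do not give whether counting used strand, so the level of Ms4a6c in particular is uncertain.

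**Figure D1:**
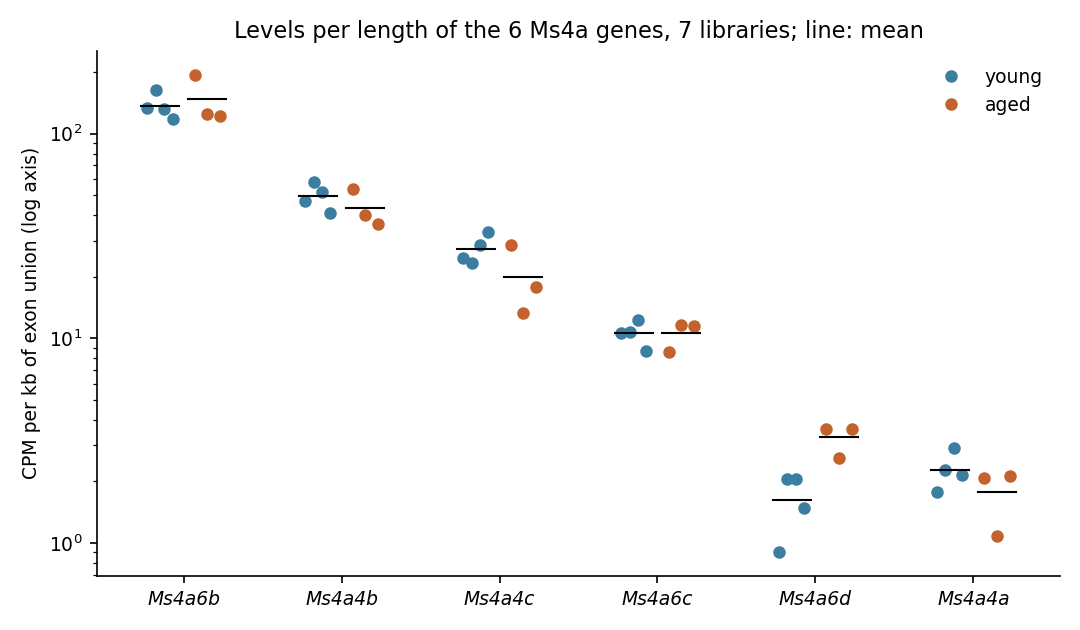
CPM per kilobase of exon union (log axis) for each of the 6 genes, with 1 point per library, young in blue (n = 4) and aged in orange (n = 3), and a line at each group mean. Ms4a6b, Ms4a4b, Ms4a4c and Ms4a6c keep their order at both ages, while Ms4a6d is below Ms4a4a in young and above it in aged libraries.

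The comparison of aged with young mice asks whether the expression of these genes in CD4+CD25+ splenocytes differs with age. By edgeR's quasi-likelihood test with Benjamini-Hochberg adjustment over all genes, 0 of the 6 passed an adjusted p of 0.05. Among all genes tested 16.7% passed, 9.8% as higher and 6.94% as lower in aged mice. At an unadjusted p under 0.05 the count was 1 of 6 (Ms4a6d), where 32.7% of all genes were under it. DESeq2 and limma voom each called 1 of 6, again Ms4a6d. DESeq2 called 16.9% of the 17036 genes to which it gave an adjusted p, and limma voom 16.4% of the 13904 genes, so these counts are near the background. The log2 fold change was positive for 2 genes (Ms4a6b and Ms4a6d) and negative for 4, with a median of -0.09 against 0.02 over all genes tested. The groups did not overlap for 1 of the 6, Ms4a6d, where 29.9% of all genes had groups that did not overlap.

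The 2 genes best known from T cells did not pass the test. Ms4a4b, the GITR-associated member, read 473, 353 and 318 CPM in aged and 412, 509, 456 and 359 CPM in young libraries. Aged replicates 2 and 3 were the lowest of the 7, but aged replicate 1 was the second highest, so the groups overlapped. Its log2 fold change was -0.19 (SE 0.174, 95% interval -0.58 to 0.21, edgeR's adjusted p = 0.498), which corresponds to a 0.878-fold level with an interval of 0.667 to 1.16. It was -0.38 without aged replicate 1 and -0.07 without aged replicate 3, passing in neither fit (edgeR's adjusted p = 0.127 and 0.86).

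Ms4a6b, the most highly expressed of the 6 per kb, read 872, 563 and 550 CPM in aged and 602, 736, 592 and 529 CPM in young libraries. Aged replicate 1 was the highest of all, and the other aged libraries fell inside the young range. This gave a log2 fold change of 0.11 (SE 0.194, interval -0.34 to 0.55, edgeR's adjusted p = 0.75). Without aged replicate 1 it was -0.15, so its direction rested on that library. The interval bounds the difference to between 0.792-fold and 1.46-fold.

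Ms4a4c, the close copy of Ms4a4b and a gene often counted among the interferon-induced genes of mouse leukocytes, read 49.97, 23.4 and 31.1 CPM in aged and 43.2, 41.1, 49.8 and 57.9 CPM in young libraries. Aged replicates 2 and 3 were below every young library, whereas aged replicate 1 was the second highest of the 7. The log2 fold change was -0.46 (SE 0.245, interval -1.02 to 0.10, edgeR's adjusted p = 0.229). Without aged replicate 1 it was -0.82 and passed the test (edgeR's adjusted p = 0.0194), as did 21.5% of all genes tested in that fit. Without aged replicate 2 it was -0.25 and did not pass (edgeR's adjusted p = 0.494). Of 10 interferon-response genes, 7 were highest in aged replicate 1. Among them Ifit1 read 81.7, 30.2 and 24.6 CPM in aged and 39.9, 13.9, 35.3 and 35.1 CPM in young libraries, and Oas2 was likewise high in aged replicate 1 (41.9 CPM) and low in the other aged libraries (10.5 and 10.7 CPM). Other genes of the list ran the opposite way in aged mice, with aged replicate 1 the lowest for Rsad2 (144, 1036 and 413 CPM) and Isg15 (80.5, 264 and 90.02 CPM). The part of an interferon response in Ms4a4c was not tested. Of these 10 genes 3 rose, Mx1 and Ifi44 among them, and none fell, against the 9.8% and 6.94% above.

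Ms4a6c read 17.6, 23.8 and 23.7 CPM in aged and 21.8, 22.1, 25.2 and 17.7 CPM in young libraries. The 3 aged values lay within or just under the young range, and aged replicate 1, the highest library for Ms4a6b, was the lowest here. Its log2 fold change was -0.00091 (SE 0.161, interval -0.37 to 0.37, edgeR's adjusted p = 0.997). BE692007, which overlaps it, had 31.0, 55.8 and 48.3 CPM in aged and 38.4, 29.7, 38.9 and 33.0 CPM in young libraries. It too was lower in aged replicate 1 than in the other aged libraries, with a log2 fold change of 0.36 (edgeR's adjusted p = 0.236).

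Ms4a6d, a member known from macrophages, showed the largest difference of the 6 genes. Its counts were 72, 45 and 67 in aged and 18, 51, 45 and 36 in young libraries, or 6.29, 4.53 and 6.27 against 1.57, 3.57, 3.55 and 2.58 CPM. Every aged library was above every young one. The estimated log2 fold change was 1.01 (SE 0.3, interval 0.32 to 1.69), a 2.01-fold higher level, with an unadjusted p of 0.0091 and an adjusted p of 0.0524 by edgeR's quasi-likelihood test. The exact two-sided permutation test gave p = 0.0571, the smallest that the 35 splits of 3 against 4 libraries allow.

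At these counts the precision within a library is low. The exact Poisson interval (95%) ran from 3.31 to 6.06 CPM in aged replicate 2, the lowest aged library, and from 2.66 to 4.7 CPM in young replicate 2, the highest young one, so these libraries are not separated by counting alone. Such intervals cover counting error only, and without molecular identifiers reads are not independent molecules. Of the 50-base coding stretches of Ms4a6d, 5.78% also occur in Ms4a6b, which had 5590 to 10505 counts in these libraries. The part of misassigned reads in the counts of Ms4a6d was not tested. The adjusted p of Ms4a6d lay between 0.0264 and 0.224 over 18 alternatives and was under 0.05 in 4 of them. These were DESeq2 (log2 fold change 0.99, adjusted p = 0.0264), limma voom (1.05, adjusted p = 0.0463), the restriction to genes with 10 or more counts in each library (1.02, adjusted p = 0.0473, 16.1% of all genes called) and the removal of mitochondrial, immunoglobulin and haemoglobin genes (1.01, adjusted p = 0.0478, 17.5% of all genes called). The log2 fold change itself was 0.82 to 1.15 with each library left out in turn.

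Ms4a4a, the Dectin-1 partner of macrophages, had few counts. There were 20, 9 and 19 counts in aged and 17, 27, 31 and 25 in young libraries, or 1.75, 0.906 and 1.78 against 1.49, 1.89, 2.45 and 1.79 CPM. The groups overlapped, and the lowest value was in aged replicate 2. Its log2 fold change was -0.36 (SE 0.322, interval -1.09 to 0.38, edgeR's adjusted p = 0.484). This interval holds both a level of 0.468-fold and one of 1.3-fold, and the estimate was -0.50 to -0.11 with each library left out (-0.11 without aged replicate 2).

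**Figure D2:**
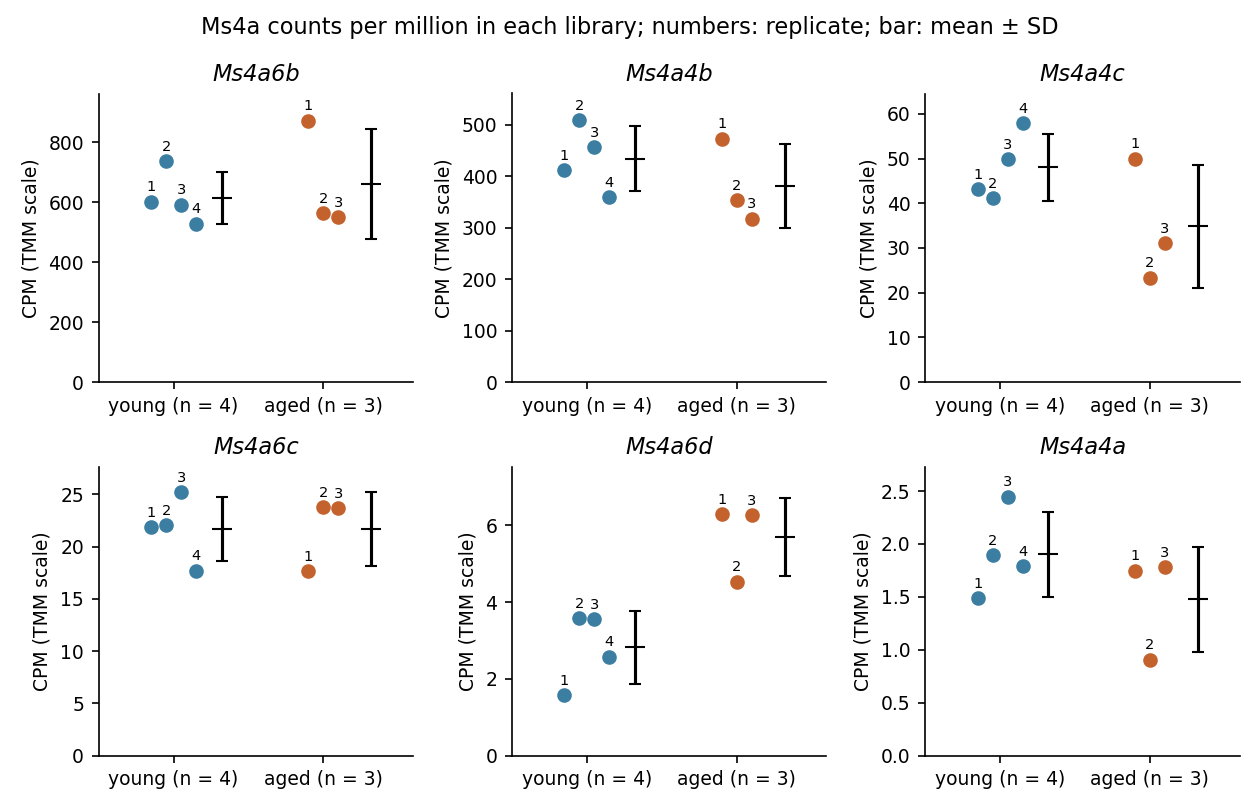
CPM of each gene (linear axes from 0) in the young (blue) and aged (orange) libraries, with replicate numbers beside the points and the mean ± SD to their right. For Ms4a6d every aged point lies above every young one, and the groups overlap for the other 5 genes.

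Values of myeloid genes stood beside those of Ms4a6d and Ms4a4a as follows. Of the 15 monocyte or macrophage genes 14 were tested, 1 rose (Cd14, an LPS co-receptor, 1.15 on the log2 scale, edgeR's adjusted p = 0.0132) and 3 fell. Csf1r, the receptor that macrophages need to survive, fell by 1.12 (edgeR's adjusted p = 0.0031), Mertk, a receptor for dying cells, fell by 1.04 (adjusted p = 0.0148) and Adgre1 (F4/80) fell by 0.70 (adjusted p = 0.0127). The median of the 14 was -0.15, and -0.05 without young replicate 3. The defining genes were not at 0 (C1qa read 19.9 to 38 CPM in aged and 28.1 to 40.6 CPM in young libraries), except Vsig4, which had 0 CPM in the 3 aged libraries and 0 to 0.14 CPM in the young ones. The part of these cells in the values of Ms4a6d and Ms4a4a was not tested. The neutrophil genes had a median of 2.13 with 4 of 8 higher in aged mice, and a median of 1.09 without aged replicate 1. Their part was not tested either.

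Of the 6 reported protein partners, 3 were tested and none passed. Tnfrsf18 (GITR) read 100, 105 and 133 CPM in aged and 74.1, 114, 71.6 and 61.2 CPM in young libraries. Young replicate 2 was above 2 of the aged libraries, so the groups overlapped, and the log2 fold change was 0.49 (SE 0.21, edgeR's adjusted p = 0.144). Without young replicate 2 it was 0.71 and passed (edgeR's adjusted p = 0.0168). Clec7a (Dectin-1) read 12.0, 5.84 and 20.9 CPM in aged and 7.69, 4.06, 7.66 and 6.81 CPM in young libraries, which overlapped. Its log2 fold change of 0.98 (SE 0.398, edgeR's adjusted p = 0.128) was 0.45 without aged replicate 3 and 1.32 without aged replicate 2, where it passed (adjusted p = 0.0346). Fcer1g, a signalling chain of Fc receptors, gave 0.21 (SE 0.14, edgeR's adjusted p = 0.35) and 0.083 without aged replicate 3. Vsig4, Trem2 and Fcer1a were too low to be tested.

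Among the other Ms4a genes, 9 of 12 were in the deposited table and 4 could be tested, and none passed. Ms4a1 (CD20) had a log2 fold change of -0.65 (SE 0.197, edgeR's adjusted p = 0.0562), with 137 to 220 CPM in aged and 227 to 337 CPM in young libraries, which did not overlap. Without aged replicate 3 it was -0.87 and passed (edgeR's adjusted p = 0.0332). Ms4a4d, which lies between Ms4a6b and Ms4a6d, had 1.75, 1.81 and 2.06 CPM in aged and 0.612, 1.4, 1.26 and 0.717 CPM in young libraries. The groups did not overlap, and its log2 fold change was 0.89 (SE 0.346, edgeR's adjusted p = 0.113). Ms4a7 and Ms4a3 gave 0.45 and 0.51 with intervals that held 0. Ms4a3 had 4.98, 3.02 and 0.187 CPM in the aged libraries, and its value ranged from -0.28 without aged replicate 1 to 1.06 without aged replicate 3. Over the same fits Ms4a7 went from 0.79 to 0.19. The median of the 4 genes was 0.48, and -0.28 without aged replicate 1, where Ms4a2 also passed the filter and Ms4a3 was the middle gene. Under the restriction to 10 or more counts in each library Ms4a3 and Ms4a4d dropped out, with as few as 2 and 7 counts in a library. The median of Ms4a1 and Ms4a7, the genes left, was -0.08. Without aged replicate 3 the median of the list was 0.19, the value of Ms4a7. Tmem176a and Tmem176b, related tetraspan genes on another chromosome, gave 0.45 (SE 0.166) and 0.56 (SE 0.196), with edgeR's adjusted p of 0.101 and 0.0863. They were 0.25 and 0.31 without aged replicate 2, and passed without aged replicate 1 at 0.57 and 0.74 (edgeR's adjusted p = 0.0443 and 0.0216).

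**Figure D3:**
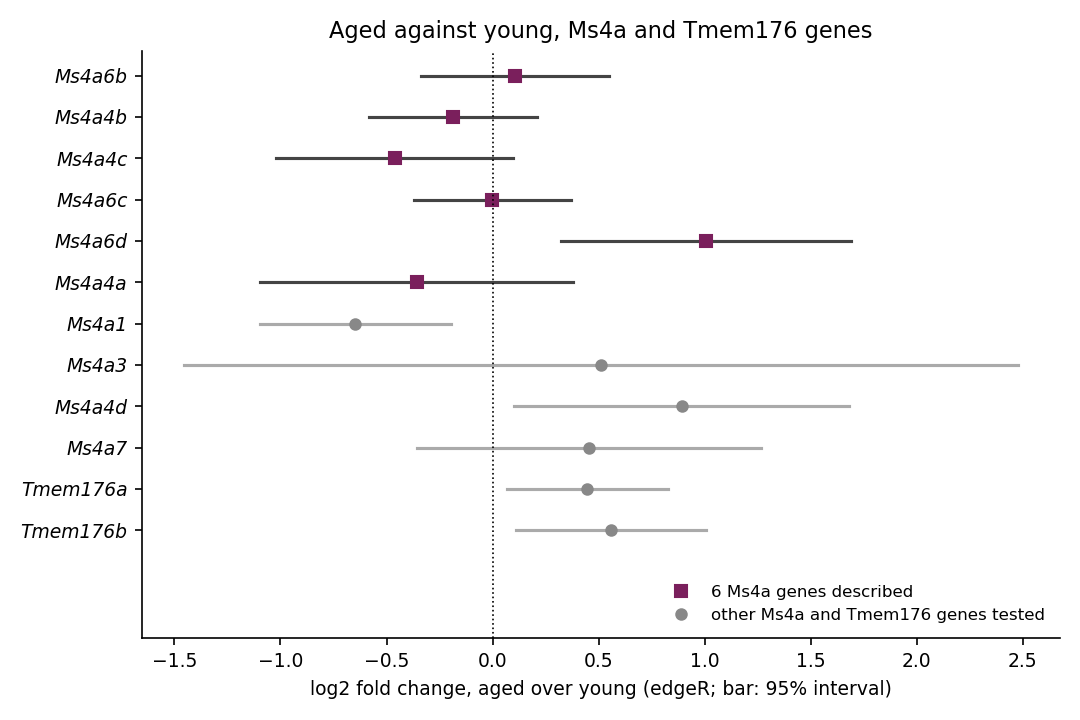
Log2 fold change of aged over young mice with its 95% interval, derived from edgeR's F statistic. Squares are the 6 genes, and circles are 4 other Ms4a genes, Tmem176a and Tmem176b. The interval of Ms4a6d runs from 0.32 to 1.69 and those of the other 5 squares include 0.

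Ratios of counts within a library do not depend on how libraries are scaled. All 15 pairs of the 6 genes were compared. The groups did not overlap in 6 pairs, of which 5 contain Ms4a6d and share its values, while the remaining one was Ms4a6b over Ms4a4b. Against Ms4a6d, 60.5% of all genes had ratios whose groups did not overlap, so its 5 pairs say little beyond the difference in Ms4a6d itself. The log2 ratio of Ms4a6b to Ms4a4b counts was 0.88, 0.67 and 0.79 in aged and 0.55, 0.53, 0.37 and 0.56 in young libraries. Each aged library was thus above each young one, although neither gene alone separated the groups. The mean ratio was higher in aged mice by 0.28 on the log2 scale, against SDs of 0.105 (aged, n = 3) and 0.086 (young, n = 4). The exact two-sided permutation p was 0.0571, the smallest possible, and 0.143 after Benjamini-Hochberg adjustment over the 15 pairs, so that no pair could pass. The difference was 0.23 to 0.33 with each library left out, and 0.23 with offsets for GC content and length. Under those offsets the groups overlapped, so the separation of the libraries did not hold there. Against Ms4a4b, 17.7% of all genes had ratios whose groups did not overlap.

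The ratio of Ms4a6d to Ms4a4a, the pair that changed places, was 1.85, 2.32 and 1.82 in aged and 0.08, 0.92, 0.54 and 0.53 in young libraries (log2 of counts, not per length). These groups did not overlap either, with a difference of 1.48 and the same exact permutation p of 0.0571. For the near-identical Ms4a4b and Ms4a4c the ratio was 3.24, 3.92 and 3.35 in aged and 3.25, 3.63, 3.2 and 2.63 in young libraries. These overlapped (exact permutation p = 0.343).

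**Figure D4:**
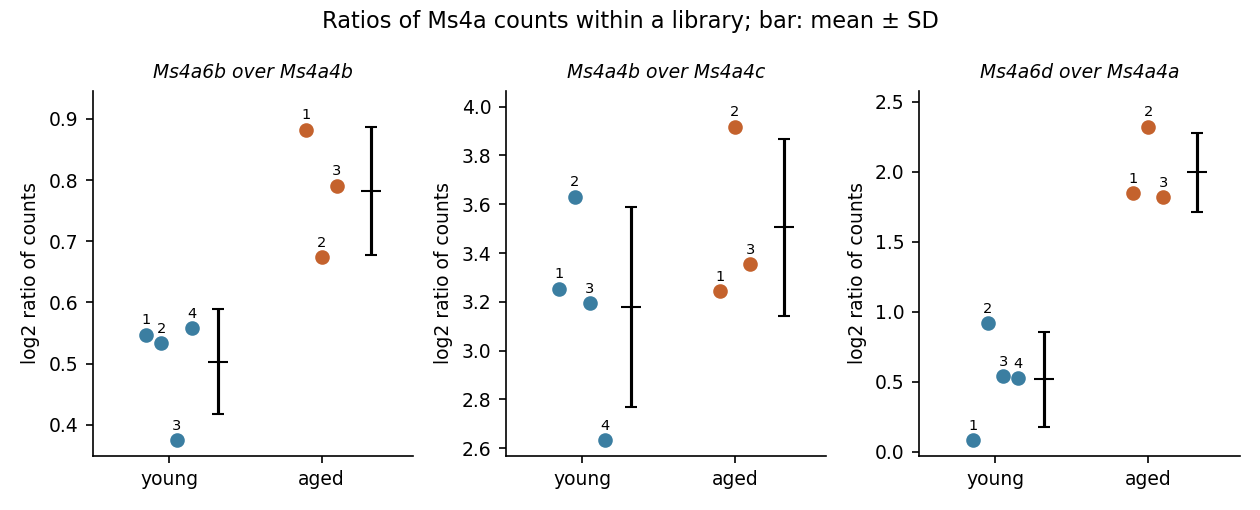
Log2 ratio of counts within each library for Ms4a6b over Ms4a4b, Ms4a4b over Ms4a4c and Ms4a6d over Ms4a4a, young in blue and aged in orange, with replicate numbers and the mean ± SD; the axes do not start at 0. The aged points lie above all young points in the first and last panels and overlap them in the middle one.

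Profiles over the 7 libraries were compared by the root mean square difference of centred log2 CPM, as a description. Among the members the nearest pair was Ms4a4b and Ms4a6b (0.159). Of the genes compared, 386 (4.04%) were nearer to Ms4a4b than Ms4a6b was, and 131 (1.37%) were nearer to Ms4a6b than Ms4a4b was. The genes most alike were Rom1 (0.0557), Antxr2 and Gm10557 for Ms4a6b, Pus7l (0.0716), Zmpste24 and Lgals1 for Ms4a4b, Gltscr1 (0.0927), Fancm and Taok3 for Ms4a4c, and Tcta (0.0731), Psmg1 and Cdc37l1 for Ms4a6c. The lower genes had less close matches, namely Slirp (0.241), Tspan3 and Fabp5 for Ms4a6d, and Plac8 (0.147), Dctpp1 and 1110008L16Rik for Ms4a4a. Since these genes were picked for a profile like that of a member, their differences between the ages are no separate result.

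Genes of T cell state gave the following beside the Ms4a values. Of 7 genes of naive or resting T cells 6 fell (median -0.81), against 6.94% of all genes tested. Lef1, a transcription factor of naive T cells, was among them (-1.13, edgeR's adjusted p = 0.00062). Il7r did not pass (0.25, edgeR's adjusted p = 0.532). Of 8 effector or memory genes 5 rose (median 1.13), against 9.8% of all genes tested. Itgae, the integrin that binds E-cadherin, was among them (1.89, adjusted p = 0.0009). Cd44, Klrg1 and Pdcd1 did not pass (0.29, -0.05 and 0.69). The part of such shifts in the Ms4a levels was not tested.

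**Figure D5:**
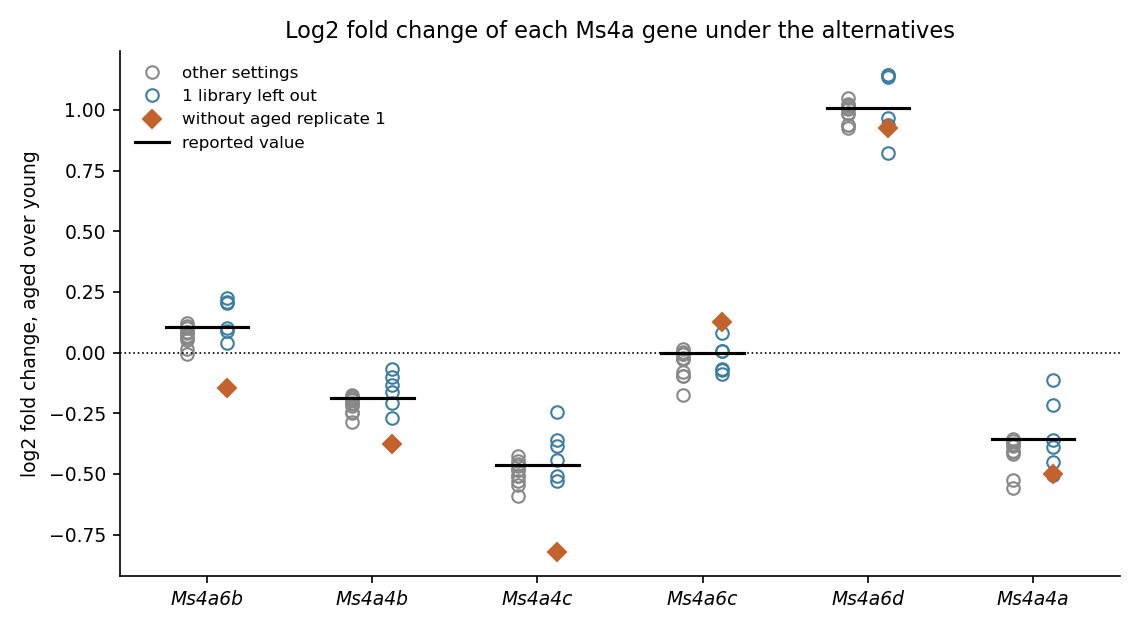
Log2 fold change of each gene as reported (line), with each library left out (open blue circles, and an orange diamond for the fit without aged replicate 1) and under the other settings (grey circles). Ms4a6d stays between 0.82 and 1.15, and without aged replicate 1 Ms4a6b goes to -0.15 and Ms4a4c to -0.82.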

How the data were processed

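Raw read counts per Ensembl gene were deposited by the authors for each of the 7 libraries. The submitters' processing notes name mm10. The aligner, annotation and strand setting are not given in the sources used here. Reads assigned to no or to multiple genes were left out (13.1% to 20.9% per library). The authors also deposited a table of signal values, which were checked to equal each count divided by 1 size factor per library. Its columns of the authors' comparison (mean, log2 fold change, standard error, statistic and p-values) were not used.

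Counts were tested with edgeR 4.0.16 in R 4.3.3 (TMM, filterByExpr, quasi-likelihood, Benjamini-Hochberg over 13904 genes, no covariate), after a test on simulated data. DESeq2 1.42.0, limma 3.58.1 (voom, and on log2 of deposited values with 1 added), other scalings and filters, GC content and length offsets, a replicate block and omission of each library were alternatives. CPM per library used TMM factors. Lengths and coding sequences came from GENCODE M21 and promoters from RefSeq. The 6 genes, the lists and the named genes (members, listed genes and the 3 genes most like each member, among genes whose log2 CPM averaged at least 3) were chosen with earlier results of these data known. Ratios and coding transcript lengths were added after the data had been seen. Some listed genes are not reported here by name. The p-values set the difference between the ages against the spread between these libraries. Depth limits the precision of the low genes.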

Additional observations from a re-analysis of the deposited data

How the results depend on the processing

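The count of the 6 genes that passed was 0, and 1 under DESeq2, limma voom, the restriction to genes with 10 or more counts in each library and the removal of mitochondrial, immunoglobulin and haemoglobin genes (Ms4a6d each time, log2 fold change 0.99, 1.05, 1.02 and 1.01). With each library left out it was 0 to 1, the 1 being Ms4a4c without aged replicate 1. Over those fits the log2 fold change was -0.82 to -0.25 for Ms4a4c, -0.15 to 0.23 for Ms4a6b, negative only without aged replicate 1, and -0.087 to 0.13 for Ms4a6c, and Ms4a6d kept a positive value. Ms4a6c, near 0 throughout, was also positive with at least 10 counts (0.013) and without the removed genes (0.0021). The cause of these differences was not tested. Ms4a4a, with 9 counts in aged replicate 2, was not tested under the filter of 10 counts.

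Over all genes, 2327 passed and 1237 to 3058 with each library left out (3058 without aged replicate 1, 1262 without aged replicate 3, 1315, 1270 and 1237 without young replicates 1, 3 and 4). Same-numbered libraries of the ages did not deviate together across genes (correlations of -0.0915, -0.292 and -0.138). Differently numbered pairs ran from -0.241 to 0.227. Correlations from so few libraries cannot tell whether same-numbered libraries were prepared together. A replicate block gave 292 genes and, with GC content and length offsets, 265. Under the block the log2 fold change of Ms4a6d was 1.02 (edgeR's adjusted p = 0.204), and that of Ms4a6b with offsets was -0.0043. The block left 0 of the 6 called. It took the median of the other Ms4a genes to 0.12, and to 0.079 with the offsets. Per length, the single coding transcript raised Ms4a6b and Ms4a4b (to 80.3 in aged and 91.4 CPM per kb in young mice) without changing the order of the 4 highest genes.

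Counts of 9 to 72 for Ms4a4a and Ms4a6d limit what these libraries can resolve.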
